A study of Arabidopsis thaliana with 12 samples.

Results

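The 60S ribosomal protein genes described here are 41 of the 32548 genes in the deposited table of Arabidopsis seedling RNA. They are the rows with the gene identifiers of the paralogs of 15 proteins of the large subunit of the cytosolic ribosome: RPL3, RPL4, RPL5, RPL7, RPL8, RPL9, RPL10, RPL18, RPL23, RPL24, RPL27a, RPL28, RPL36, RPP0 and RPP1. The rule that picks them uses no expression value. RNA was sequenced from whole seedlings of Arabidopsis thaliana, untreated and 20 days old, which had spent 12 days on Murashige and Skoog medium plates and then grew in soil at 22 °C with 16 h of light and 8 h of dark. The samples fall into 4 genotypes of 3 each, which are wild type, gte4, the line eml1 eml2, called the double mutant here, and a triple mutant labelled gte4 eml1 eml2. The labels do not name the alleles or say whether samples are separate plants or pools, so each p-value measures only the spread between these samples. The title of the series places GTE4, a bromodomain protein, and the EML proteins, which are EMSY-like, in a complex that reads acetylated and methylated histones, and the comparisons ask how transcripts differ when either part or both are mutated.

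The large subunit holds the centre where peptide bonds form, the tunnel through which the new chain leaves, and the stalk that calls in elongation factors. Each of its proteins is encoded in Arabidopsis by a small family of paralogs, and growing tissue transcribes these genes heavily. Mutants in several of them, among them RPL5A, RPL9C, RPL24B and RPL27aC, are known for altered leaf shape or organ polarity.

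Values are read counts normalized by the authors, and totals of the libraries ran from 31990484 to 34322625. GTE4 itself stood at 1753, 1618 and 1737 in wild type and at 64.7, 99.2 and 61 in gte4. In the triple mutant its values were 97.3, 93.9 and 78.6. EML2 fell from 612, 549 and 546 in wild type to 117, 112 and 94.7 in the double mutant and to 32.1, 28.8 and 31.4 in the triple mutant. EML1 RNA was not lower in the lines labelled as its mutants, with a mean of 928 ± 69.6 in wild type, 942 ± 55.3 in the double mutant and 1004 ± 35.7 in the triple mutant (SD, n = 3), so the EML1 label could not be checked by its RNA level. The 6 leaf markers took 5.48% ± 0.33 of the wild-type total, and the 4 root markers 0.0053% ± 0.00108, nearly all of it from PYK10. Of the root markers the root hair gene EXP7 was at 0 in the 9 samples of wild type, the double mutant and the triple mutant.

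Of the 41 genes, 38 reached a mean value of 1 across the 12 samples and were tested. RPL27aB was at 0 in every sample, and 98.3% of its exon bases are shared with another gene. RPL8B reached 3.09 in 1 triple-mutant sample. RPP1D was tested but scarce, with a mean of 2.96 in wild type and 7.13 in the double mutant, and its double-mutant and triple-mutant values overlapped wild type. Its gte4 values of 4.38, 7.91 and 8.29 lay above the wild-type values of 4.23, 3.88 and 0.793, without a call in limma (adjusted p = 0.247). The other 37 genes had means over the 12 samples from 254 for RPP0A to 28294 for RPL3A. All 41 genes together made up 0.774% ± 0.0152 of the library total in wild type, 0.914% ± 0.0196 in gte4, 0.868% ± 0.0143 in the double mutant and 0.868% ± 0.00736 in the triple mutant (SD, n = 3).

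In gte4, transcripts of 60S ribosomal proteins were higher than in wild type. Of the 38 tested genes, 29 rose and 0 fell at an adjusted p under 0.05 in limma, against 12.1% of all 22315 tested genes called higher and 13.8% called lower. The median log2 change of the 38 genes was 0.255, and that of all tested genes was −0.005. Each of the 15 families has at least 1 member that rose. The 29 genes include every tested member of the RPL3, RPL4, RPL5, RPL8, RPL18, RPL23, RPL24 and RPL27a families, and their changes ran from 0.15 for RPL4D to 0.59 for RPP1A. Summed over paralogs per kilobase of exon, the families stood at 1.11 times the wild-type mean for RPL4 to 1.31 times for RPP1. The 3 gte4 samples lay above the 3 wild-type samples for 31 of the 38 genes, and for 18.6% of all tested genes.

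The 9 tested genes without a call in gte4 were RPL7A, RPL7D, RPL9B, RPL10B, RPL28C, RPL36A, RPP0A, RPP0C and RPP1D. Their wild-type levels per kilobase of exon had a median of 935, against 7163 for the 29 genes that rose. These are mostly the lesser expressed copies of their families, though RPL3B, at 610 per kilobase in wild type, rose. RPL9B, without a call, was the most expressed copy of its family, with 50.5% per kilobase in wild type. RPL9C and RPL9D, at 25.6% and 23.9%, rose. Whether the level of a gene had a part in its call was not tested.

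**Figure D1:**
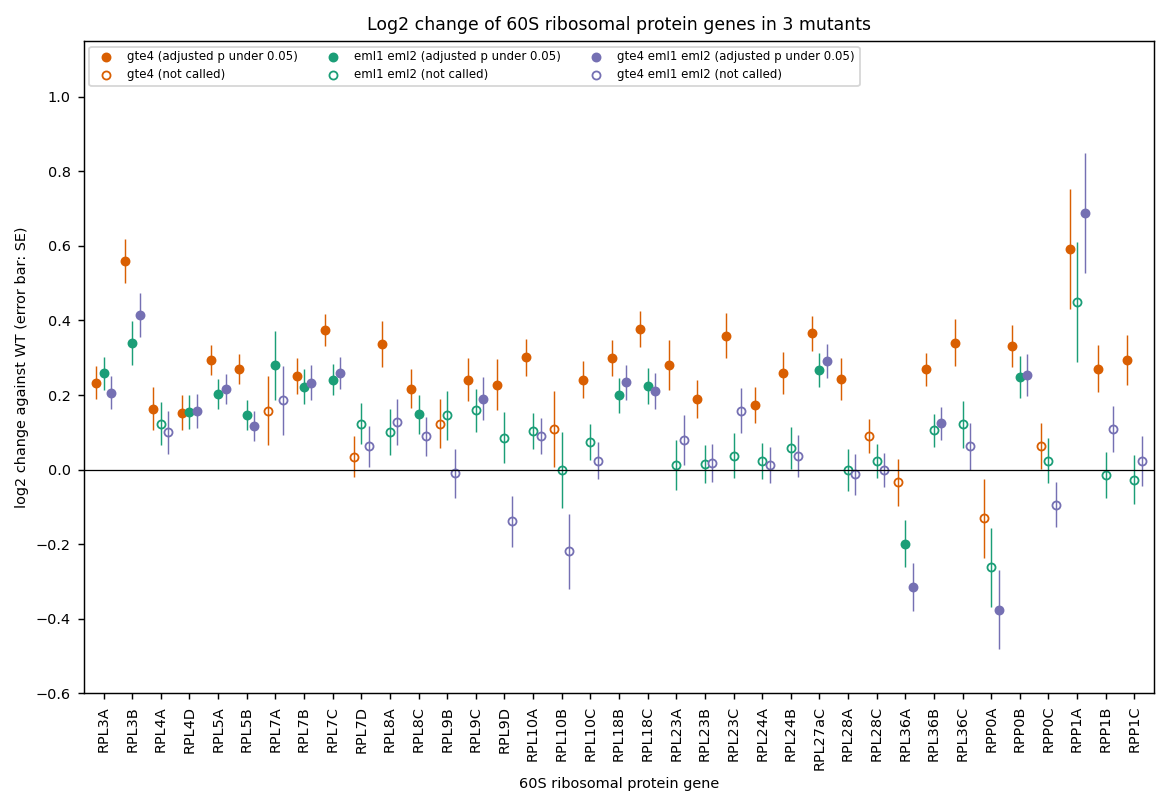
Log2 change against wild type (vertical axis) of 37 genes for 60S ribosomal proteins (horizontal axis) in gte4, the double mutant and the triple mutant, with limma's SE as error bars; filled points have an adjusted p under 0.05. RPP1D, at a mean of 5.83, is left out. In gte4 29 points are filled and above 0, while RPL36A and RPP0A are filled below 0 in the triple mutant.

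Fewer of the genes were called in the double mutant. In that line 13 of the 38 genes rose and 1 fell, against 11.6% of all tested genes called higher and 12.0% called lower. The genes that rose were RPL3A, RPL3B, RPL4D, RPL5A, RPL5B, RPL7A, RPL7B, RPL7C, RPL8C, RPL18B, RPL18C, RPL27aC and RPP0B, and the gene that fell was RPL36A. No RPL9, RPL10, RPL23, RPL24, RPL28 or RPP1 gene was called. The median log2 change was 0.122 for the 38 genes and 0.006 for all tested genes. All 3 double-mutant samples lay above the wild-type samples for 19 genes and below for 2 (18.8% and 20.1% of all tested genes).

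Exon length moved with this comparison. Among genes with a mean of at least 50, the 3353 with the shortest exon length, up to 1242 bases, had a median log2 change of −0.106 in the double mutant, and the 3347 longest had 0.105. Members of the 60S set are short, with a median exon length of 1106 bases, and 21 of them lie in the shortest class. With the length trend of each library removed, 27 members rose in the double mutant and 0 fell, with a median of 0.199. The shares of all tested genes given here and below are those of the fit with the trend left in. Counts with the trend removed therefore have no such share beside them. In gte4 the shortest class had a median of 0.024, and 29 members still rose with the trend removed.

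**Figure D2:**
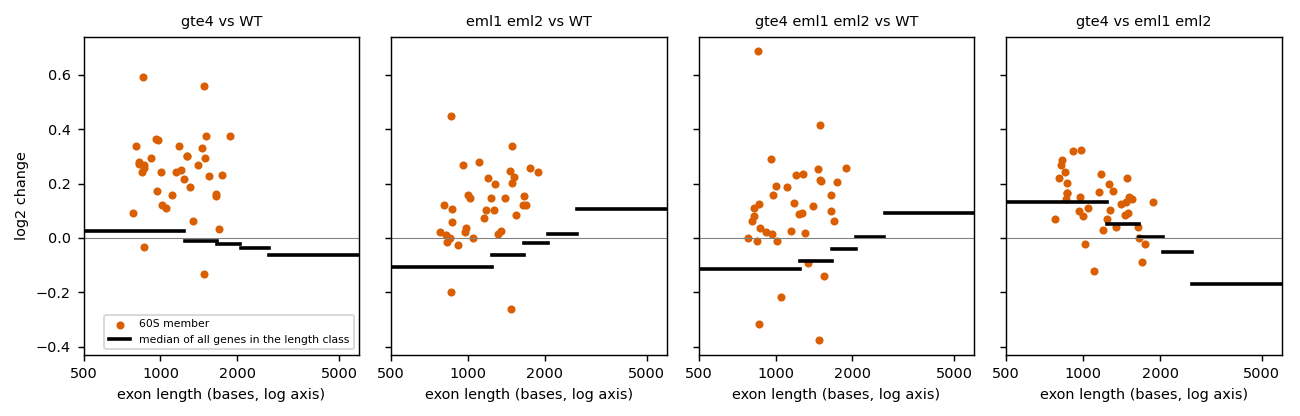
Log2 change (vertical axis) against exon length in bases (horizontal log axis) for 60S ribosomal protein genes (points), with the median of all genes of each of 5 length classes (black lines) in 4 comparisons; RPP1D is outside the axis. The lines slope upwards with length in both comparisons of a double-mutant background with wild type, and most points lie above the line of their class.

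The triple mutant had a median change close to that of the double mutant. Of the 38 genes 14 rose and 2 fell against wild type, beside 15.4% higher and 18.2% lower among all tested genes. The median was 0.105, against 0.001 for all tested genes. The 14 were RPL3A, RPL3B, RPL4D, RPL5A, RPL5B, RPL7B, RPL7C, RPL9C, RPL18B, RPL18C, RPL27aC, RPL36B, RPP0B and RPP1A, and the 2 that fell were RPL36A and RPP0A. Samples of the triple mutant lay above all wild-type samples for 14 tested genes and below for 4, RPL9D, RPL10B, RPL36A and RPP0A (21.3% and 24.3% of all tested genes). The shortest length class had a median of −0.116 here, and with the length trend removed 28 members rose and 2 fell, with a median of 0.21.

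The proteins around the peptidyl transferase centre are taken first. RPL3 reaches into that centre, and RPL3A (AT1G43170) had the highest level of the 41 genes per kilobase of exon, 14356 ± 287 in wild type (SD, n = 3). Values of RPL3A were 24955, 25534 and 24537 in wild type, 29987, 29838 and 28394 in gte4, 30924, 29271 and 29516 in the double mutant, and 29589, 28756 and 28223 in the triple mutant. Every mutant sample exceeded every wild-type sample, and the log2 changes of 0.23, 0.26 and 0.21 in that order were each called (SE 0.0438, adjusted p = 0.00107, 0.000572 and 0.00167 in limma). No difference of RPL3A between mutants was called. RPL3B (AT1G61580), the lesser paralog, had 915, 912 and 891 in wild type, 1421, 1294 and 1295 in gte4, 1125, 1185 and 1130 in the double mutant, and 1263, 1220 and 1144 in the triple mutant. The gte4 samples were the highest and none of the mutant samples overlapped wild type. Its log2 change was 0.56 in gte4, 0.34 in the double mutant and 0.41 in the triple mutant (SE 0.0594, adjusted p = 6.83e-06, 0.000722 and 6.02e-05).

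RPL8, the counterpart of bacterial L2, also lies near the catalytic site. RPL8A (AT2G18020) values were 12951, 14844 and 15061 in wild type and 18207, 18746 and 17107 in gte4. In the double mutant they were 15116, 15440 and 15342, and in the triple mutant 16030, 14391 and 16371. Among the comparisons with wild type the gte4 rise was called, at 0.34 (SE 0.0618, adjusted p = 0.000898), and gte4 lay above the double mutant by 0.23 (adjusted p = 0.021), a difference not called with the length trend removed. RPL8C (AT4G36130), with 23.9% of its exon bases shared with another gene, changed by 0.22 in gte4, and its call in the double mutant, at 0.15, was lost in 14 of 25 alternatives, among them those without any 1 of its own 3 samples. RPL10 helps to place the tRNA and completes the subunit; RPL10A (AT1G14320) rose by 0.30 and RPL10C (AT1G66580) by 0.24 in gte4, and neither was called in the other mutants. RPL10B, at a mean of 320 in wild type, had no call against wild type. RPL4, which lines the exit tunnel, gave small changes. RPL4D (AT5G02870) had 13101, 14621 and 14296 in wild type, 15278, 15584 and 15805 in gte4, 15793, 15333 and 15564 in the double mutant, and 15613, 15539 and 15663 in the triple mutant. Its changes of 0.15, 0.15 and 0.16 rested on the first wild-type sample: without it no RPL4D call remained. Among the comparisons with wild type RPL4A was called in gte4, at 0.16 (adjusted p = 0.0485), and 16 of 25 alternatives removed that call, among them those without any 1 of the gte4 samples.

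RPL5 carries the 5S rRNA into the subunit. RPL5A (AT3G25520) values were 14180, 14462 and 14023 in wild type, 17458, 17850 and 16986 in gte4, 16562, 16401 and 16162 in the double mutant, and 16570, 16555 and 16378 in the triple mutant. The replicates were tight and every mutant group lay wholly above wild type, by 0.29, 0.20 and 0.22 on the log2 scale (SE 0.0403, adjusted p = 7.76e-05, 0.00176 and 0.000637). RPL5B (AT5G39740) followed with 0.27, 0.15 and 0.12. Its call in the triple mutant, at an adjusted p of 0.0345, was lost without wild-type sample 1 or 3 or triple-mutant sample 1 or 3.

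RPL7 has 4 genes, and they did not move alike. RPL7C (AT2G44120) had 5304, 5383 and 5373 in wild type, 7158, 6899 and 6763 in gte4, 6203, 6425 and 6348 in the double mutant, and 6331, 6335 and 6556 in the triple mutant. Its log2 changes were 0.37, 0.24 and 0.26 (SE 0.0423, adjusted p = 1.25e-05, 0.000756 and 0.000194). RPL7B (AT2G01250), the most abundant copy with 66.4% of the family per kilobase in wild type, rose by 0.25, 0.22 and 0.23. RPL7D (AT3G13580) had 1649, 1466 and 1634 in wild type, 1663, 1570 and 1624 in gte4, 1691, 1731 and 1744 in the double mutant, and 1628, 1677 and 1649 in the triple mutant, with no call in any of the 3. RPL7A (AT1G80750) is the most diverged copy, with a coding sequence 56.84% to 58.91% identical to those of the others. Its values were 1048, 864 and 839 in wild type, 1056, 1016 and 982 in gte4, 1162, 1122 and 1043 in the double mutant, and 1128, 1101 and 900 in the triple mutant. The double-mutant and wild-type samples of RPL7A overlapped, and the call at 0.28 (SE 0.0921, adjusted p = 0.0368) was lost without wild-type sample 2 or 3, gte4 sample 2, or double-mutant sample 1 or 2.

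Core and surface proteins of the subunit gave some of the clearest separations. RPL27aC (AT1G70600) is in effect the whole of its family. Its values were 8707, 9489 and 9141 in wild type, 11750, 11899 and 11534 in gte4, 11287, 11114 and 10481 in the double mutant, and 11293, 11125 and 11011 in the triple mutant. No mutant sample fell within the wild-type range, and the changes were 0.36, 0.27 and 0.29 (SE 0.0458, adjusted p = 3.39e-05, 0.000626 and 0.000142). RPL18C (AT5G27850) had 9063, 9741 and 9603 in wild type, 12696, 12312 and 11847 in gte4, 10602, 11557 and 11019 in the double mutant, and 10645, 11100 and 11117 in the triple mutant. It rose by 0.38, 0.22 and 0.21, with gte4 above the rest; 17% of its exon bases are shared with another gene. RPL18B (AT3G05590) had 8528, 9427 and 9445 in wild type, 11615, 11036 and 11057 in gte4, 10385, 10404 and 10630 in the double mutant, and 10821, 10483 and 10883 in the triple mutant. Its changes of 0.30, 0.20 and 0.23 were all called (SE 0.0477, adjusted p = 0.000287, 0.00643 and 0.00125).

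RPL23 and RPL24 face the small subunit. All 5 of their genes rose in gte4 and had no call in the double mutant or the triple mutant, and all 5 were higher in gte4 than in the double mutant by the test of that difference. With the length trend removed, RPL23C and both RPL24 genes were called higher in the double mutant as well, these and RPL23A in the triple mutant, and of the 5 differences between gte4 and the double mutant only that of RPL23C was called. RPL23C (AT3G04400) had 12863, 14759 and 14208 in wild type and 18299, 18553 and 16761 in gte4. It stood at 14468, 13794 and 14588 in the double mutant and at 16255, 14439 and 15953 in the triple mutant. The gte4 samples were higher than all 9 others, with a change of 0.36 against wild type (SE 0.0605, adjusted p = 0.000466) and of 0.32 against the double mutant (adjusted p = 0.00426). RPL23A rose by 0.28, RPL23B by 0.19, RPL24A by 0.17 and RPL24B (AT3G53020) by 0.26 in gte4, and the RPL24A call was lost without gte4 sample 1. RPL24B is the gene of SHORT VALVE1, known for translation after upstream open reading frames. RPL28A had 0.24 in gte4 and RPL28C an uncalled 0.09.

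The RPL36 family divided. RPL36B (AT3G53740) had 4801, 4836 and 4771 in wild type, 5970, 5630 and 5770 in gte4, 5124, 5157 and 5215 in the double mutant, and 5428, 5043 and 5234 in the triple mutant. RPL36C (AT5G02450) had 3317, 3651 and 3734 in wild type, 4627, 4595 and 4318 in gte4, 3627, 4071 and 3944 in the double mutant, and 3702, 3997 and 3479 in the triple mutant. Both rose in gte4, by 0.27 and 0.34 (adjusted p = 0.000373 and 0.000958). RPL36A (AT2G37600) went the other way, with 1074, 1158 and 1047 in wild type, 1132, 1059 and 1012 in gte4, 967, 936 and 953 in the double mutant, and 869, 842 and 924 in the triple mutant. Its gte4 samples overlapped wild type, and its double-mutant and triple-mutant samples lay wholly below. Its log2 change was −0.20 in the double mutant (SE 0.0635, adjusted p = 0.0318) and −0.32 in the triple mutant (adjusted p = 0.00112). With the length trend removed the double-mutant value was −0.08 (adjusted p = 0.371) and that of the triple mutant −0.18 (adjusted p = 0.0189), and the double-mutant call was also lost without wild-type sample 2 or any sample of the double mutant. Of the remaining calls in the triple mutant, that of RPL36B, at 0.12 (adjusted p = 0.0398), was lost without any 1 of the wild-type or double-mutant samples or without triple-mutant sample 1 or 3.

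RPL9 lies near the base of the stalk. RPL9D (AT4G10450) had 1577, 1648 and 1608 in wild type, 1977, 1964 and 1728 in gte4, 1634, 1875 and 1631 in the double mutant, and 1530, 1482 and 1379 in the triple mutant. It rose by 0.23 in gte4 (SE 0.0684, adjusted p = 0.0217), a call lost without gte4 sample 1 or 2 or wild-type sample 1 or 3, and stood at −0.14 in the triple mutant without a call. RPL9B (AT1G33120) and RPL9C (AT1G33140) are nearly identical in sequence: their coding sequences of 585 bases differ at 5 positions, and 48.0% of the 150-base windows of the RPL9B transcript occur in that of RPL9C. A read is 150 bases, so counts of this pair could have been split or dropped in ways the files do not record, and their separate values are uncertain. RPL9C rose by 0.24 in gte4 and by 0.19 in the triple mutant, the latter call being lost without wild-type sample 1 or 3 or triple-mutant sample 2, while RPL9B had an uncalled 0.12 and −0.01. With the replicate number as a block RPL9C was also called in the double mutant, at 0.16 (adjusted p = 0.0442). Coding positions 428 to 487 show how few bases tell them apart, with the 3 differing bases in capitals (RefSeq, TAIR10.1, plus strand, chr1:12011578-12011637 and chr1:12023952-12024011).
RPL9B: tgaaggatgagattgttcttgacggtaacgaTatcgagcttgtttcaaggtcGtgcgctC
RPL9C: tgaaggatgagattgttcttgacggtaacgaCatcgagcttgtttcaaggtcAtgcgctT

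The stalk is built of P0, which anchors it to the rRNA, and of P1 and P2 proteins that reach out to elongation factors. RPP0B (AT3G09200) had 15172, 17833 and 17618 in wild type, 21007, 21309 and 21212 in gte4, 20419, 19482 and 20085 in the double mutant, and 20437, 19194 and 20614 in the triple mutant. It rose by 0.33, 0.25 and 0.25 (SE 0.0564, adjusted p = 0.000506, 0.00453 and 0.00234), with no overlap with wild type. RPP0C (AT3G11250) had 1664, 1754 and 1760 in wild type, 1909, 1869 and 1642 in gte4, 1785, 1772 and 1709 in the double mutant, and 1605, 1554 and 1693 in the triple mutant, with no call. RPP0A (AT2G40010), the scarcest of the 3, had 274, 318 and 277 in wild type, 282, 255 and 254 in gte4, 228, 246 and 249 in the double mutant, and 253, 218 and 199 in the triple mutant. Against wild type the last group gave a log2 change of −0.38 (SE 0.106, adjusted p = 0.0118). Of the exon bases of RPP0A 50.2% are shared with another gene. The call was lost without wild-type sample 2 (adjusted p = 0.0646) or triple-mutant sample 3 (0.0635).

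RPP1A (AT1G01100) varied widely among wild-type samples. It had 5204, 7776 and 4707 in wild type, 8323, 8150 and 9606 in gte4, 8269, 7805 and 7518 in the double mutant, and 9245, 9034 and 9522 in the triple mutant. The second wild-type sample lay within the double-mutant range and below the gte4 and triple-mutant ranges. The changes of 0.59 in gte4 (SE 0.161, adjusted p = 0.0258) and 0.69 in the triple mutant (adjusted p = 0.00996) were called; the gte4 call was lost without wild-type sample 1 or 3 or any gte4 sample. RPP1B and RPP1C rose in gte4, by 0.27 and 0.29, and were higher in gte4 than in the double mutant, by 0.29 and 0.32 (adjusted p = 0.00845 and 0.00652), differences not called with the length trend removed.

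**Figure D3:**
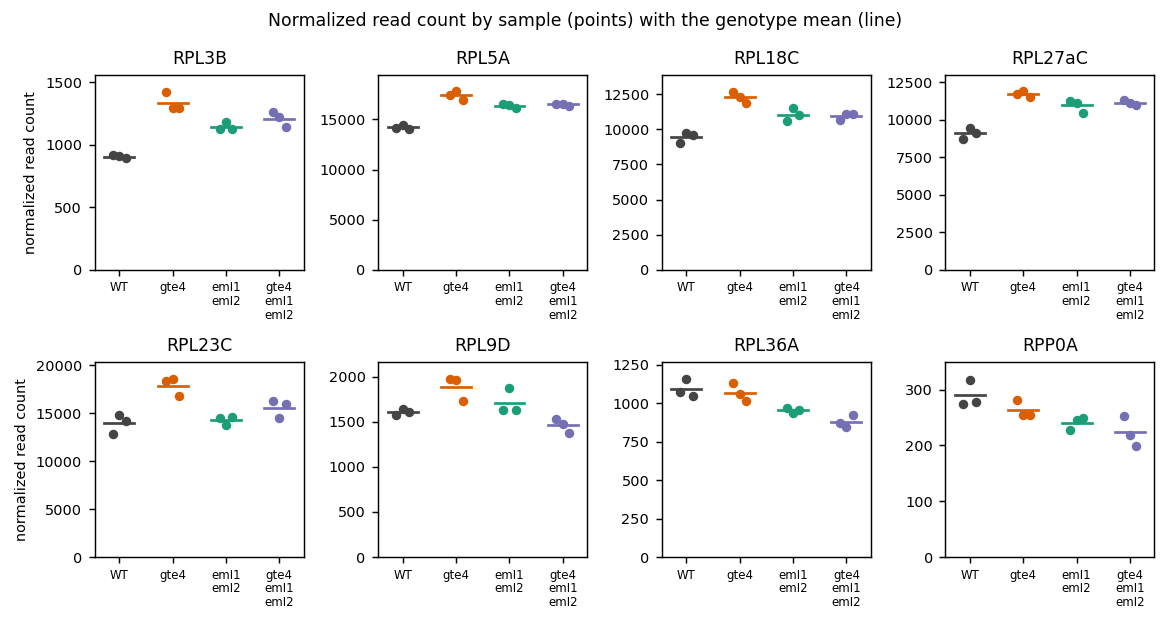
Normalized read count (vertical axes, from 0) of 8 genes in each of the 12 samples (points) by genotype, with genotype means as lines. RPL3B, RPL5A, RPL18C and RPL27aC are above wild type in every mutant sample, RPL23C is highest in gte4, and RPL36A and RPP0A are below wild type in the double mutant and the triple mutant.

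Between mutants, the triple mutant lay below gte4. Of the 38 genes 0 rose and 15 fell, against 4.47% and 5.08% of all tested genes, with a median of −0.156 beside −0.013. Among the called genes the largest difference was that of RPL9D at −0.37 (SE 0.0684, adjusted p = 0.00666), and RPL36A at −0.28, RPL36C at −0.28 and RPP1C at −0.27 came next; RPL10B had −0.33 without a call (adjusted p = 0.0511). The triple-mutant samples lay below all gte4 samples for 27 of the 38 genes and for 15.5% of all tested genes. The count rests on single libraries: it was 1 without gte4 sample 1 or without gte4 sample 2, 2 without triple-mutant sample 2, 7 without triple-mutant sample 3 and 9 without double-mutant sample 3. The shortest length class had a median of −0.152 here, and with the length trend removed 1 member, RPL9D, was called, at −0.31 (adjusted p = 0.0178).

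Against the double mutant, 0 of 38 genes were called in the triple mutant by limma, beside 0.426% called higher and 1.23% lower among all tested genes, and 3 had an unadjusted p under 0.05. The median was −0.01. Deviations of same-number samples of these 2 genotypes were correlated, at 0.217, 0.211 and 0.182 over all tested genes, though the labels name no batch. With the replicate number as a block in limma RPL9D was called, at −0.23 (adjusted p = 0.0401). A comparison of gte4 with the double mutant had 16 genes higher in gte4 and 0 lower, against 5.77% and 7.76% of all tested genes, with a median of 0.138. RPL23C at 0.32, RPP1C at 0.32, RPP1B at 0.29 and RPL23A at 0.27 had the largest differences. Here the shortest length class had a median of 0.132 and the longest −0.168, and with the length trend removed 2 members, RPL23C and RPL7C, were called. Leaving out single libraries moved the count from 16 to 4 without gte4 sample 1, 3 without gte4 sample 2, 6, 7 and 8 without double-mutant samples 1, 2 and 3.

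Whether the changes add was asked by an interaction term: the sum of the gte4 and double-mutant changes was taken from the triple-mutant change. It was called below 0 for 14 of the 38 genes and above 0 for 0, against 1.92% and 1.02% of all tested genes. The median was −0.271 beside −0.007. RPL3B had −0.48 (SE 0.084, adjusted p = 0.00589), and RPL9D had −0.45 (adjusted p = 0.0197), RPL36C −0.40 (adjusted p = 0.0239) and RPL18C −0.39 (adjusted p = 0.00643). Those of RPL9D and RPL36C were lost without gte4 sample 1 or 2, without the second double-mutant sample or without triple-mutant sample 3. The same wild-type samples enter all 3 changes. With the length trend removed 15 members were called, with a median of −0.248. The count fell to 6 without gte4 sample 1 or gte4 sample 2, 7 without double-mutant sample 2, and 8 without double-mutant sample 1 or triple-mutant sample 3.

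**Figure D4:**
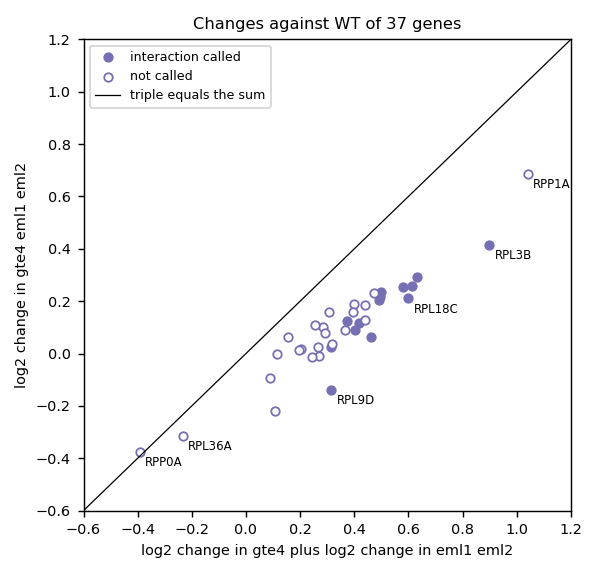
Log2 change in the triple mutant (vertical axis) against the sum of the log2 changes in gte4 and the double mutant (horizontal axis), all against the same wild-type samples; each point is 1 of 37 genes, filled where the interaction was called. The black line marks where both are equal, and 36 of the 37 points lie below it.

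Ratios of paralogs hardly depend on the scaling of a library. Of 39 pairs within families, 34 had both genes tested, and 6 ratios differed among the 4 genotypes at an adjusted p under 0.05 in an exact permutation test of 15400 arrangements, adjusted over the 34 pairs. When samples were rearranged only within replicate numbers, 576 arrangements, 0 of the 34 pairs were called, with a lowest adjusted p of 0.059 in that exact permutation test. Its smallest p is 0.00174, so a single pair could not pass the adjustment over 34 pairs however far its ratio moved. RPL7C over RPL7D reached that smallest p, and RPL3A over RPL3B had 0.00347 in the same test. RPL3A over RPL3B had a mean log2 ratio of 4.79 ± 0.019 in wild type, 4.46 ± 0.064 in gte4, 4.70 ± 0.077 in the double mutant and 4.58 ± 0.041 in the triple mutant (SD, n = 3, exact permutation p = 0.000195, adjusted p = 0.00331). The share of RPL3B in the family per kilobase thus went from 4.07% in wild type to 5.06% in gte4. RPL7C over RPL7D was 1.76 ± 0.1 in wild type and higher by 0.34 in gte4, 0.12 in the double mutant and 0.20 in the triple mutant (SD, n = 3, exact permutation p = 0.000195, adjusted p = 0.00331). Both pairs had gte4 farthest from wild type.

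For RPL36 and RPP0 the triple mutant was farthest. RPL36A over RPL36B was −2.14 ± 0.066 in wild type, −2.44 ± 0.061 in gte4, −2.44 ± 0.03 in the double mutant and −2.57 ± 0.07 in the triple mutant (SD, n = 3, exact permutation p = 0.00136, adjusted p = 0.0155). All 9 mutant samples lay below the 3 of wild type, and the share of RPL36A in its family went from 11.3% to 9.14%, 9.28% and 8.71%. RPL36A and RPL36B have exon lengths of 861 and 862 bases. RPP0B over RPP0C was 3.29 ± 0.085, 3.55 ± 0.12, 3.51 ± 0.049 and 3.63 ± 0.033 in the same order (SD, n = 3, exact permutation p = 0.00422, adjusted p = 0.0359). RPP0A over RPP0B went from −5.86 in wild type to −6.32, −6.37 and −6.49 (adjusted p = 0.0394 by the exact permutation test), and RPL5A over RPL5B from 0.27 to 0.30, 0.33 and 0.37 (adjusted p = 0.0394 by the same exact test). When each sample was left out in turn, the first 3 pairs kept their call in all 12 repeats, RPP0B over RPP0C in 7, RPP0A over RPP0B in 6 and RPL5A over RPL5B in 3. The pairs share genes, so they are not independent. The 28 other pairs, among them RPL4A over RPL4D (adjusted p = 0.325) and RPL24A over RPL24B (0.324), had no call in the exact permutation test.

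**Figure D5:**
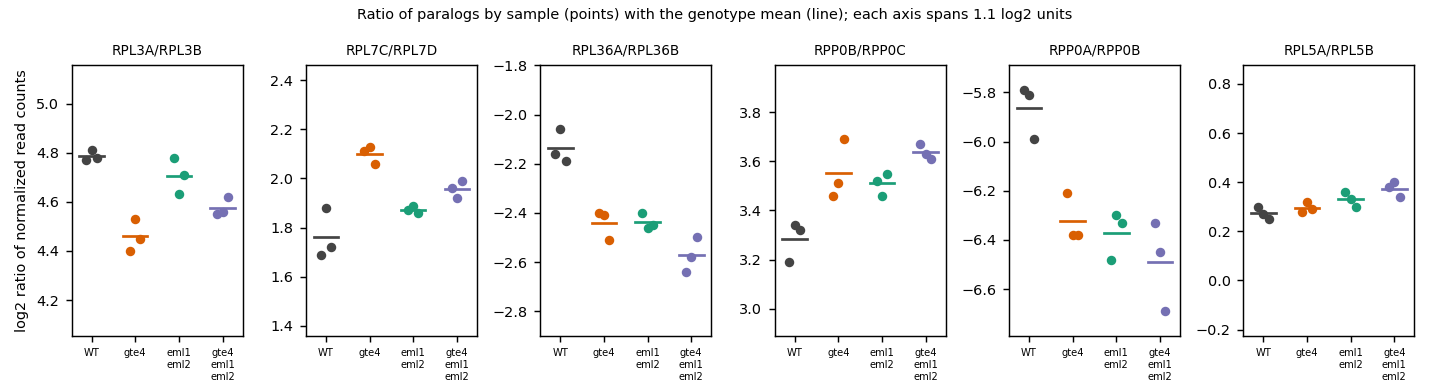
Log2 ratio of the normalized read counts of 6 paralog pairs (vertical axes, each spanning 1.1 log2 units) in each sample (points) by genotype, with means as lines. RPL3A over RPL3B is lowest in gte4, and RPL36A over RPL36B is below wild type in every mutant sample.

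Many plant ribosomal protein genes carry the site II element, TGGGCC or TGGGCT, which TCP factors are known to bind, and the telo box AAACCCTA. In the 250 bases before the annotated start, read on both strands from the RefSeq annotation of TAIR10.1, site II letters occurred at 30 of the 41 genes, or 73.2%, against 19.2% of 27432 protein-coding genes. The telo box letters occurred at 7 of 41, or 17.1%, against 4.49%. Neither share was particular to these 41 genes. Genes of other 60S proteins had site II letters at 66.7% and the telo box at 25.3%, and genes of 40S proteins had them at 60.9% and 15.2%. Of the tested genes with site II letters 22 of 27 rose in gte4, with a median of 0.27, and of those without 7 of 11, with a median of 0.19. Windows of 120 bases before the start are shown for RPL3A with RPL3B, RPL7C with RPL7D and RPL36A with RPL36B, the 3 pairs with the smallest p for a ratio that differs among genotypes, with the letters of either motif in capitals on either strand. They are RPL3A chr1:16266433-16266552 and RPL7D chr3:4432927-4433046 on the plus strand, and RPL3B chr1:22723153-22723272, RPL7C chr2:18251157-18251276, RPL36A chr2:15775375-15775494 and RPL36B chr3:19915067-19915186 on the minus strand.
RPL3A: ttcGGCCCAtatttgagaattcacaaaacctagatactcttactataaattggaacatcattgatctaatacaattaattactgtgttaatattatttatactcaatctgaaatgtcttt
RPL3B: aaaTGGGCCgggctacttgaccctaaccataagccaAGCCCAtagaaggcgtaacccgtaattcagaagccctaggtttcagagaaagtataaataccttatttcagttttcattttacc
RPL7C: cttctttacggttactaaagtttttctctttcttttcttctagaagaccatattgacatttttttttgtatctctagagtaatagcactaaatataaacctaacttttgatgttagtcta
RPL7D: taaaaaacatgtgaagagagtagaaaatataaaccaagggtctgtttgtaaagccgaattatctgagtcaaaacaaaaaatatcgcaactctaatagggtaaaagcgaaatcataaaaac
RPL36A: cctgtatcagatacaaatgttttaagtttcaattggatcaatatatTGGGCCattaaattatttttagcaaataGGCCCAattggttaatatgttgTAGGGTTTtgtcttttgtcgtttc
RPL36B: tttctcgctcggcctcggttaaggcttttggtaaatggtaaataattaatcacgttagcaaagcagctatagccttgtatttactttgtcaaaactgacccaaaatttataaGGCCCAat
Site II letters stand in 4 of these 6 windows, at 1 place for RPL3A and RPL36B and at 2 for RPL3B and RPL36A, and neither motif is in those of RPL7C and RPL7D, though RPL7C has site II letters at 1 place farther upstream within the 250 bases. Of the 6 windows that of RPL36A holds the telo box. Within 250 bases the telo box was also found at RPL28A and RPP1B, which rose in gte4, and not at RPP0A, which fell in the triple mutant. These matches describe letters and not binding.

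Other genes of translation are given by their counts, beside 12.1% of all tested genes called higher and 13.8% called lower in gte4. Of 72 tested genes of other 60S proteins 54 rose and 0 fell in gte4, with a median of 0.244, led by RPL38A at 0.44 (adjusted p = 1.84e-05) and RPP2A at 0.43, a P2 stalk protein. Of 46 genes of 40S proteins 38 rose and 0 fell, with a median of 0.271, led by RPS28B at 0.47 and RPS16C at 0.43. Of 11 translation elongation genes 8 rose, and of 27 ribosome assembly genes 6 rose, NUC-L1, a nucleolin, by 0.34 and FIB1, a fibrillarin, by 0.32. Of 21 nuclear genes for the plastid 50S subunit 4 rose, with a median of 0.085.

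In the double mutant 13 of the 27 assembly genes rose and 0 fell, with a median of 0.185, led by NOP58-1 at 0.41 and SWA2 at 0.40. The other 60S genes had 16 higher and 2 lower of 72, the 40S genes 11 higher and 1 lower of 46, the elongation genes 2 higher of 11, and the plastid 50S genes 0 higher and 4 lower of 21. In the triple mutant the counts were 23 higher and 4 lower for other 60S genes and 9 higher and 1 lower for 40S genes. Assembly genes had 10 higher, elongation genes 5 higher and plastid 50S genes 3 lower. Of all tested genes 11.6% were called higher and 12.0% lower in the double mutant, and 15.4% and 18.2% in the triple mutant. In the triple mutant the 19.6% of 40S genes called higher was near that share. The 14.3% of plastid 50S genes called lower was below it. With the length trend removed, 44 other 60S genes, 32 genes of the 40S subunit and 15 assembly genes were higher in the double mutant, and 50, 31 and 11 in the triple mutant. Of 6 genes of the TOR pathway, the kinase pathway that promotes ribosome production, 2 fell in gte4 and 3 in the double mutant, and 1 rose and 2 fell in the triple mutant.

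Markers of dividing cells and of flower tissue, like the ribosomal protein genes, were more often called higher than lower against wild type. Of all tested genes 12.1%, 11.6% and 15.4% were called higher in gte4, the double mutant and the triple mutant. Called lower were 13.8%, 12.0% and 18.2%. Against gte4, the triple mutant had 6 of 6 dividing-cell markers higher (median log2 change 0.325) and 0 of 11 inflorescence markers called. The 60S genes had 0 higher and 15 lower there. The dividing-cell markers are long, with exon lengths from 2649 bases for MCM7 to 3184 for MCM2, while most 60S genes are short. In that comparison the longest length class had a median of 0.147 and the shortest −0.152. The part of exon length in these opposite directions was not tested. The 6 dividing-cell markers, all subunits of the replicative helicase, summed to 5313 to 5688 in wild type, 6101 to 7012 in gte4, 7661 to 8095 in the double mutant and 7819 to 8475 in the triple mutant; 4, 6 and 6 of them rose, with MCM4 at 0.39, 0.60 and 0.62. The 11 inflorescence markers summed to 977 to 1197 in wild type, 1456 to 1458 in gte4, 1606 to 2073 in the double mutant and 1487 to 1787 in the triple mutant, and 6, 8 and 6 of them rose, with none at 0 in any group. The order of these sums, highest in a double-mutant background, was not that of the 60S genes, whose sum was highest in gte4. All these sums were taken with the length trend left in. Root markers summed to 1421 to 2048 in wild type, 2779 to 3212 in gte4, 1796 to 1991 in the double mutant and 2930 to 3128 in the triple mutant, and nearly all of each sum is PYK10, a beta-glucosidase of endoplasmic reticulum bodies. Of the 3 tested root markers PYK10 rose in gte4 and the triple mutant, by 0.78 and 0.80, CASP1, of the Casparian strip, fell in gte4 and the double mutant, with changes of −1.37 and −1.25, and COBL9 had no call, so that the median was −0.564 in gte4, −0.413 in the double mutant and −0.358 in the triple mutant. Of 6 leaf markers 1 rose and 1 fell in gte4, 1 rose and 2 fell in the double mutant, and 1 rose and 3 fell in the triple mutant. The part of these markers in the changes of 60S genes was not tested, and in RNA of whole seedlings more cells of a type and more RNA per cell cannot be told apart.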

How the data were processed

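Paired-end reads of 150 bases from total RNA were processed with bcl2fastq, HISAT2, TAIR10 and edgeR, per the submitters' processing notes; versions, the counting program, the annotation and the strand are not given in the sources used here. The deposited signal values are read counts normalized by the authors: they are not whole numbers, their floor is 4.16e-17, and 6605 of 32548 genes are at 0 or the floor in every sample. The most frequent low value was 0.72 to 1.11 by sample, and 17.9% to 78.3% of low values lay within 0.02 of a whole multiple of it, so whole reads were not recovered, no counting interval is given and the depth in reads is unknown. The analysis was planned for counts, with limma as the test for other units.

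Values were log2 transformed after adding 1, so fold changes of low genes are understated. The 22315 genes whose mean across samples reached 1 were tested. A linear model with a term for each genotype was fitted to the 12 samples in limma 3.58.1 (R 4.3.3), using its trend and robust options, and p-values were adjusted by Benjamini-Hochberg over all tested genes within each of 7 comparisons, with a threshold of 0.05. Each adjusted p of a gene is from this fit, which was tested on simulated data, unless an alternative is named beside it. In that test, for gte4 against wild type, 38% of 100 genes raised 1.2-fold were recovered. Of 100 genes raised 1.5-fold in the same simulation, 92% were recovered, and the simulation as a whole gave 11 false calls. A gene without a call is therefore not shown to be unchanged. Raised genes were drawn from well expressed ones, with independent normal noise. Far fewer genes were changed than the 2693 called higher and 3087 called lower in gte4. The recovered shares may thus differ from those in these data. With 3 samples against 3 an exact permutation test cannot go below 0.1, so none is given for single genes. Ratios of paralogs, log2 of both values plus 1, were compared over 4 genotypes with a two-sided exact permutation F test whose smallest p is 6.5e-05. TMM factors were recomputed from the deposited values for an alternative scaling. The length trend was removed in an alternative by a lowess fit per library. Values per kilobase use the union of exons in RefSeq's annotation of TAIR10.1, from which sequences and coordinates were also read; all member identifiers were found in it. Without strand, reads of overlapping genes cannot be told apart.

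The members, the gene lists, the tests and the length alternative were chosen with earlier results of these data known. Values per sample are given for up to 8 genes per comparison with wild type, the largest called change of each family first, and for the highest gene per kilobase, the genes called against the trend and the 4 pairs with the smallest p; RPL9D was added after its values were seen. Of other lists, at most 2 genes with the largest called change are named per comparison. Over all tested genes the 3 correlations of deviations between same-number samples all passed 0.1 only between eml1 eml2 and the triple mutant, at 0.217, 0.211 and 0.182. Over genes with a mean of at least 50 they also did so between wild type and gte4 (0.465, 0.262 and 0.506), wild type and eml1 eml2 (0.516, 0.121 and 0.576), and gte4 and eml1 eml2 (0.533, 0.177 and 0.624), so for these 4 combinations the results with the replicate number as a block are given where they change a call. The values of 1 member gene are not reported here.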

Additional observations from a re-analysis of the deposited data

Results flagged for a closer look

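For 14 genes the change in the triple mutant differed from the sum of the gte4 and eml1 eml2 changes, by the test of that difference in limma. The differences, on the log2 scale and with the sum subtracted, were −0.28 for RPL3A, −0.48 for RPL3B, −0.28 for RPL5A and −0.30 for RPL5B. They were −0.36 for RPL7C, −0.45 for RPL9D, −0.32 for RPL10A and −0.29 for RPL10C. RPL18B had −0.27, RPL18C −0.39 and RPL27aC −0.34, and RPL36B had −0.25, RPL36C −0.40 and RPP0B −0.33. All 14 were negative, as were those of 36 of the 37 tested genes other than RPP1D, and the comparisons share their wild-type samples. RPL3B and RPL7C kept their call in all 24 alternatives run, whereas that of RPL18B was lost in 14, of RPL36B in 13 and of RPP0B in 12.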

How the results depend on the processing

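Without the length trend the members called numbered 27 in the double mutant and 30 in the triple mutant against wild type, 1 for the triple mutant against gte4 and 2 for gte4 against the double mutant; with the replicate block added they were 27, 32, 1 and 5, and 1 for the triple mutant against the double mutant. With no filter on the mean the counts were 5 for the triple mutant against gte4, 7 for gte4 against the double mutant and 8 for the interaction, and with no mean-variance trend 0, 2 and 2. Fitting only the compared genotypes gave 9 for the triple mutant against gte4 and 1 against the double mutant, and equal library totals gave 8 for gte4 against the double mutant. The replicate block gave 29, 15 and 18 members for gte4, the double mutant and the triple mutant against wild type, 17 for the triple mutant against gte4, 1 against the double mutant, 16 for gte4 against the double mutant and 18 for the interaction. It ended no call of a single member. For the paralog ratios it left 0 of 34 pairs called by the exact permutation test of 576 arrangements, whose smallest p is 0.00174, with a lowest adjusted p of 0.059. A single pair at that smallest p cannot be called after adjustment over 34 pairs. Leaving out single samples gave 25 to 29 members for gte4, 10 to 14 for the double mutant and 13 to 18 for the triple mutant against wild type, 1 to 17 against gte4, 0 to 0 against the double mutant, 3 to 17 for gte4 against the double mutant, 6 to 16 for the interaction and 3 to 9 pairs. Values that turned were RPL28A with the block and without the length trend, 0.12 in the double mutant and 0.12 in the triple mutant, RPL28C in the triple mutant without the length trend, 0.13 with or without the block, and RPL36B in the triple mutant against gte4, 0.011 with or without the block. Of the other values of single members 6026 kept their side of the threshold, 455 lost a call and 118 gained a call. The turned values named had a call in at least 1 of the fits compared. The 6026 include values called in neither fit, some of which may have changed direction. The cause of these changes was not tested. Excluding pairs over 90% coding sequence identity, an alternative chosen after seeing the data, left 5 pairs called; the planned limit on protein identity was not run. The depth in reads is unknown, so values near 1, as for RPP1D and RPL8B, carry no stated precision.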
